A study of Mus musculus with 6 samples.

Results

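The Gata2 locus of mouse chromosome 6 was described from its CAGE peaks, taken as every peak listed between 88100000 and 88160000 in the mm9 build. Of the 158966 peaks in the series 16 lie there, 14 on the plus strand, which is the strand of Gata2, and 2 on the minus strand. Cap analysis of gene expression (CAGE) reads short tags from the 5′ end of capped RNA, and a cluster of tags, a peak, is taken as a promoter. The 6 libraries come from Ba/F3, a mouse cell line that the labels call pro-B cells. They form 2 groups of 3. Cells of one group express the receptor tyrosine kinase FLT3 with an internal tandem duplication (FLT3-ITD), and those of the other FLT3-ITD that also has the activation loop substitution D835Y (the double mutant below). Both groups carry FLT3-ITD, and no library of cells without it was analysed here. Groups were taken from the sample titles, since another label numbers the substituted residue differently in each double-mutant sample. Nothing in the labels says that the replicates are separate cultures or clones, so spreads and p-values cover these samples and may be technical. The locus was chosen by its position and selected on its CPM in this comparison, the low level of 1 minus-strand peak in the double mutant among them, so its levels are given as a description and no p-value is given for any of its peaks.

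Gata2 encodes a zinc finger transcription factor that binds GATA motifs and is needed for the upkeep of hematopoietic stem and progenitor cells and for mast cells. The gene is known to start from a pair of promoters with separate first exons, an upstream one used mainly in blood progenitors and a downstream one used more widely, and both give the same protein. Its expression also depends on enhancers that lie far upstream of the gene and within it. Capped transcripts from the strand opposite to a gene are often long noncoding RNAs or enhancer RNAs. CAGE alone does not tell these apart.

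The deposited files pair no peak with a gene. The position of Gata2, with its 5′ end near 88143500, came with the choice of the locus, and the labelled cell type could not be checked against marker genes for the same reason. In the RefSeq gene table, which follows another build (GRCm38.p6), the coding gene before Gata2 is Rpn1 and the coding genes after it are Dnajb8 and Eefsec. The table also places 2 long noncoding RNA genes between Rpn1 and Gata2 or over it. One of these, Gm38708, is on the minus strand and overlaps Gata2, and the other, Gm38856, is on the plus strand. No position was carried from one build to the other, so no peak was assigned to Gm38708 or to one of the starts of Gata2.

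RefSeq gives Gata2 2 start sites, and the 250 bases before each are shown because the plus-strand peaks described here lie on the strand of this gene, with no peak matched to either start. Capitals mark matches to CCGCCC or its reverse complement, the letters of a GC box. The upstream promoter is at chr6:88193641-88193890 and the downstream one at chr6:88198414-88198663, both on the plus strand of GRCm38.p6.

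Gata2 upstream promoter: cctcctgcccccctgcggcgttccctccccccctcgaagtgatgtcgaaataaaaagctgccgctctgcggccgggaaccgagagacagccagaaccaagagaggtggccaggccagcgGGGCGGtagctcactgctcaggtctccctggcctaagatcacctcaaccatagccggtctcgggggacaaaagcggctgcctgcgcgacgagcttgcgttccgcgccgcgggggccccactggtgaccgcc

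Gata2 downstream promoter: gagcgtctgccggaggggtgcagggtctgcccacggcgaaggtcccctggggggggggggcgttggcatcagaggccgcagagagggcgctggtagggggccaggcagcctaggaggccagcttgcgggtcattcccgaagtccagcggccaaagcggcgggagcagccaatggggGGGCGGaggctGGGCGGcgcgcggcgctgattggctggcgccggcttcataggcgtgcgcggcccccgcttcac

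The upstream promoter held 1 match, 131 bases before the start, and the downstream promoter 2, starting 74 and 63 bases before it. Of 32851 RefSeq promoters cut to the same length, 32.7% held this motif on either strand. On both strands, the core of a GATA site (GATAA), which 22.6% of all promoters held, was also searched and was not in either window. Neither was a TATA box (TATAAA), which 12.4% held, or the STAT site TTCNNNGAA, which 7.02% held. Both windows were rich in G and C, at 67.2% upstream and 74.0% downstream, against a median of 52.4% over all promoters. They held 22 and 24 CG dinucleotides, against a median of 6.

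Of the 16 peaks 3 had no tag in any library, 1 of them on the minus strand. One more, on the plus strand, had 1 tag in all. The 12 others, 11 plus and 1 minus, reached 1 CPM (tags per 1000000 tags) in at least 3 libraries, which is the filter used for the whole series and left 19162 peaks. The minus-strand peak passed it through the FLT3-ITD libraries, since in the double mutant only replicate 1 reached 1 CPM. Peaks with tags were 5 to 38 bp wide, counting both listed ends. Distances below are taken from the middle of the most active plus-strand peak.

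The 2 strands differed in how they compared between the groups. The mean of the minus-strand peak was 25.1 times lower in the double mutant, whereas the summed plus-strand level was nearly equal in the means. On the minus strand, the peak chr6:88116155..88116166,- lies 32.5 kb upstream of the most active Gata2-strand peak. It had 27.5, 29.7 and 30.8 CPM in FLT3-ITD replicates 1, 2 and 3. In the double mutant it had 2.18, 0.429 and 0.890 CPM. The groups did not overlap, the FLT3-ITD libraries lay close together and double-mutant replicate 1 was the highest of its group. In tags the peak had 282, 175 and 351 in FLT3-ITD cells and 26, 6 and 9 in the double mutant. The lowest of these, 6 tags, is above the level of 3 tags that a count of 0 would allow (0.215 to 0.510 CPM by library), so the peak was low but present in every double-mutant library. The mean was 29.3 ± 1.69 against 1.17 ± 0.908 CPM (SD, n = 3 each), a ratio of 25.1 and a difference of -3.89 on the log2(CPM + 1) scale, where the pseudocount of 1 makes differences of low peaks look smaller. Without double-mutant replicate 1 the ratio was 44.5, and without any other single library it was 19.1 to 25.9. The pooled tags were 808 and 41, which gives 25.8 with an exact 95% interval of 18.8 to 36.2 for counting error only.

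**Figure D1:**
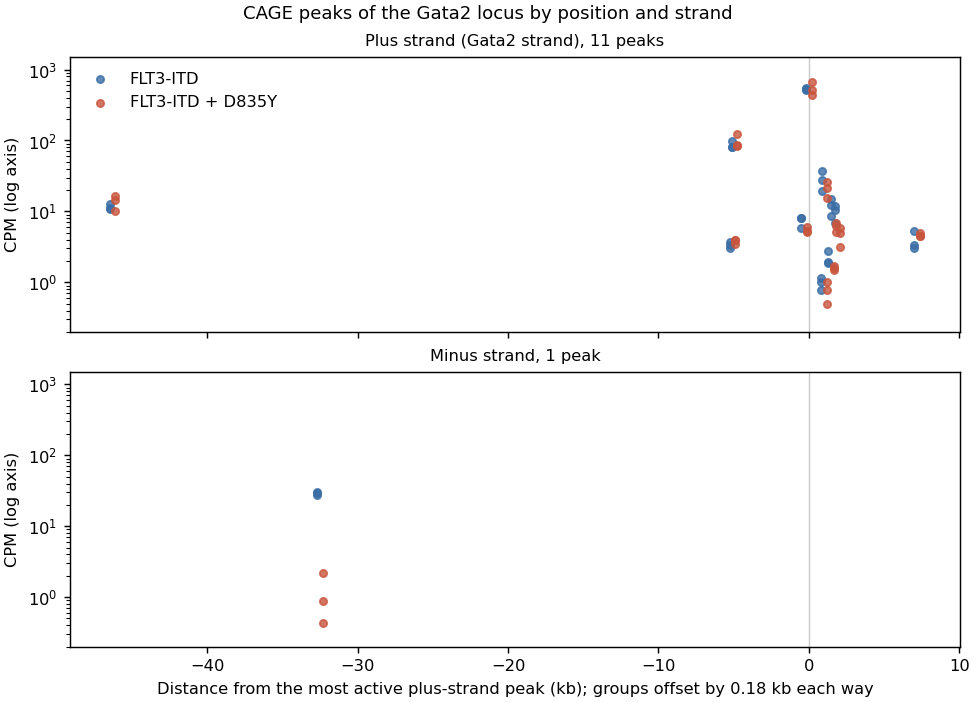
CPM (log axis) of the 12 peaks of the Gata2 locus that reached 1 CPM in at least 3 libraries, by distance from the most active plus-strand peak in kb, with the plus strand above and the minus strand below. Each point is 1 library. At the minus-strand peak, 32.5 kb upstream, the groups are apart, and at the most active peak they overlap.

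On the plus strand the sum over all 14 peaks was 681, 686 and 739 CPM with FLT3-ITD alone and 590, 839 and 672 CPM in the double mutant. Double-mutant replicates 1 and 2 were the lowest and the highest of the 6 libraries, so the double-mutant values enclosed those of FLT3-ITD. The means were 702 ± 32.1 and 700.0 ± 127 CPM (SD, n = 3 each), a difference of -0.02 on the log2(CPM + 1) scale. The sign of this difference was not stable: it was 0.10 without double-mutant replicate 1 and -0.16 without replicate 2. A spread of this size in the double mutant leaves moderate differences undetectable with 3 libraries a group.

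**Figure D2:**
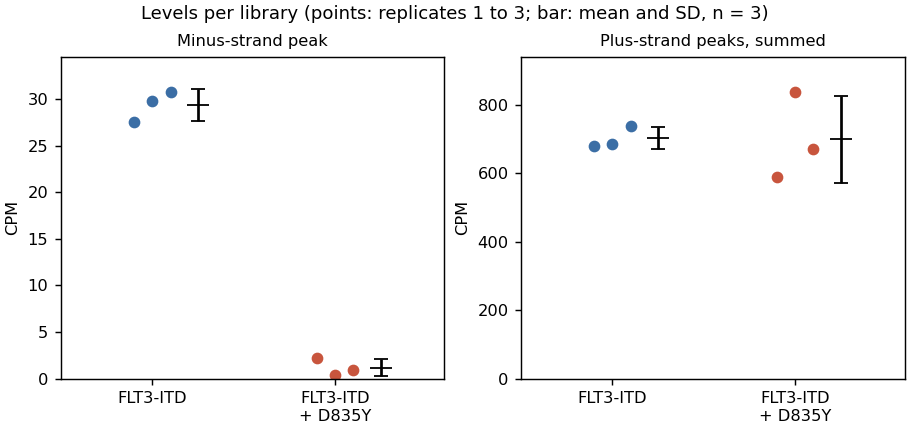
Level in CPM of the minus-strand peak (left) and of the summed plus-strand peaks (right) in each library, with the mean and SD of each group (n = 3). The minus-strand points are 27.5 to 30.8 CPM with FLT3-ITD alone and 0.429 to 2.18 CPM in the double mutant, while the plus-strand points of the double mutant lie on both sides of those of FLT3-ITD.

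Within a library the ratio of the strands does not depend on the scaling of the library. For every 100 plus-strand CPM the minus-strand peak had 4.04, 4.33 and 4.17 CPM in FLT3-ITD replicates 1 to 3. In the double mutant the values were 0.370, 0.0512 and 0.132. The groups were apart, and the ratio varied less among the FLT3-ITD libraries than among those of the double mutant, where replicate 2 combined the lowest minus-strand with the highest plus-strand level. The log2 ratio differed by -4.94 between the groups, and by -5.67 without double-mutant replicate 1 and -4.24 without replicate 2. As a share of all tags of the locus, the minus strand held 3.88% of 7264 tags, 4.15% of 4213 and 4.001% of 8772 in FLT3-ITD cells. It held 0.369% of 7052, 0.0511% of 11731 and 0.132% of 6802 in the double mutant. The exact 95% binomial intervals ran from 3.45% at the lowest to 4.80% at the highest in FLT3-ITD cells and from 0.0188% to 0.540% in the double mutant.

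**Figure D3:**
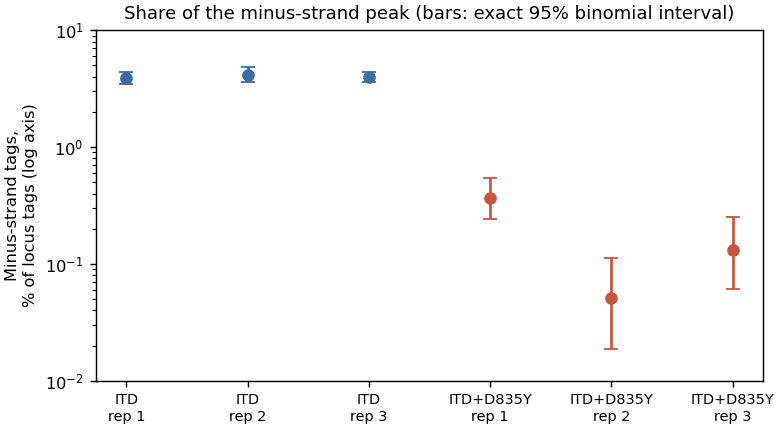
Minus-strand tags as a percentage of all tags of the locus (log axis) in each library, with the exact 95% binomial interval, which covers counting error only. The 3 FLT3-ITD libraries are near 4% and the 3 double-mutant libraries between 0.0511% and 0.369%.

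Within the locus the minus-strand peak was the only peak of its strand with tags. The next tested minus-strand peaks were 120.9 kb away on the lower side and 280.3 kb away on the higher side. On either strand, the nearest peaks with tags were plus-strand peaks at a distance of 13.8 kb and 27.4 kb. Both neighbours had overlapping groups. The one on the lower side, chr6:88102369..88102384,+, had 10.9, 11.2 and 12.5 CPM with FLT3-ITD alone and 16.3, 10.1 and 14.5 CPM in the double mutant. Its means were 11.6 ± 0.866 and 13.6 ± 3.19 CPM (SD, n = 3 each). It is on the strand of Gata2 but 46.3 kb before the most active peak, so whether it belongs to the gene cannot be read from the files. Leaving it out, the plus-strand difference was -0.02.

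Nearer to the 5′ end of Gata2, the plus strand was dominated by a pair of peaks 4.9 kb apart, which held most of the plus-strand tags in every library. The most active, chr6:88148650..88148669,+, had 538, 523 and 544 CPM with FLT3-ITD alone and 436, 665 and 521 CPM in the double mutant. The FLT3-ITD libraries lay inside the range of the double mutant, and the means were 535 ± 11.3 and 541 ± 116 CPM (SD, n = 3 each). The second, chr6:88143711..88143717,+, lies upstream and had 81.7, 82.3 and 99.8 CPM in FLT3-ITD cells. It had 83.8, 122 and 86.8 CPM in the double mutant. Here too the groups overlapped, with double-mutant replicate 2 the highest at both peaks. Its means were 87.9 ± 10.3 and 97.7 ± 21.5 CPM, a difference of 0.14 on the log2(CPM + 1) scale.

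The use of these starts relative to each other varied little. Of the tags on the plus strand past the minus-strand peak, the most active peak held 74.96% to 80.4% in FLT3-ITD cells and 76.0% to 80.3% in the double mutant. The second peak held 12.2% to 13.7% in FLT3-ITD cells and 13.2% to 14.8% in the double mutant. Both pairs of ranges overlapped. Each of these starts had a minor companion on its upstream side. The companion of the second peak, chr6:88143570..88143590,+, had 3.32, 3.06 and 3.68 CPM with FLT3-ITD alone and 3.44, 3.94 and 3.95 CPM in the double mutant. The companion of the most active peak, chr6:88148324..88148328,+, had 5.75, 8.16 and 7.98 CPM against 5.37, 5.15 and 5.93 CPM. The groups overlapped at both.

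Past the most active peak, within 7.2 kb, lay 6 more tested plus-strand peaks. Of these 5 had a lower mean in the double mutant, and at 3 the groups did not overlap. Over all 19162 tested peaks, 8566 had a log2 difference below 0. The groups did not overlap at 41.8% of them in either direction and at 17.6% lower in the double mutant. Nothing is read from the counts at the 6 peaks. The peak chr6:88150281..88150291,+ had 8.58, 12.2 and 14.8 CPM with FLT3-ITD alone and 6.29, 6.87 and 5.14 CPM in the double mutant. Its means were 11.9 ± 3.14 and 6.10 ± 0.879 CPM (SD, n = 3 each), a difference of -0.84 on the log2(CPM + 1) scale. The next peak, chr6:88150573..88150587,+, had 6.83, 10.5 and 11.8 CPM against 5.79, 3.15 and 5.04 CPM. Its means were 9.71 ± 2.57 and 4.66 ± 1.36 CPM, a difference of -0.92. At both peaks the lowest FLT3-ITD library, replicate 1, was not far above the highest double-mutant library. The third, chr6:88150129..88150143,+, was less active, with 1.95, 1.87 and 2.81 CPM against 1.68, 1.502 and 1.58 CPM.

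Set against the most active peak of the same library, the sum of the peaks at 88150281 and 88150573 was 2.86, 4.36 and 4.88 per 100 in FLT3-ITD cells. It was 2.77, 1.51 and 1.95 per 100 in the double mutant. The groups were apart by a narrow margin, and this pair was picked after its values were seen. All 6 peaks together gave 7.57, 11.3 and 12.9 per 100 in FLT3-ITD cells and 10.3, 4.80 and 7.47 per 100 in the double mutant, and here the groups overlapped. The most active of the 6, chr6:88149715..88149727,+, had 19.3, 28.0 and 36.8 CPM against 25.8, 15.5 and 21.4 CPM, also with overlap. The peak farthest downstream, chr6:88155851..88155874,+, was the one with a higher mean in the double mutant, at 3.32, 5.27 and 3.07 CPM against 4.45, 4.44 and 5.04 CPM. The remaining one, 1.0 kb past the most active peak, had means of 0.980 and 0.766 CPM. FLT3-ITD replicate 3 was the highest of its group at 5 of these 6 peaks and at 10 of the 12 tested peaks of the locus. Double-mutant replicate 2 was the lowest of its group at 5 of the 6. What part such library differences have in the lower values was not tested.

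**Figure D4:**
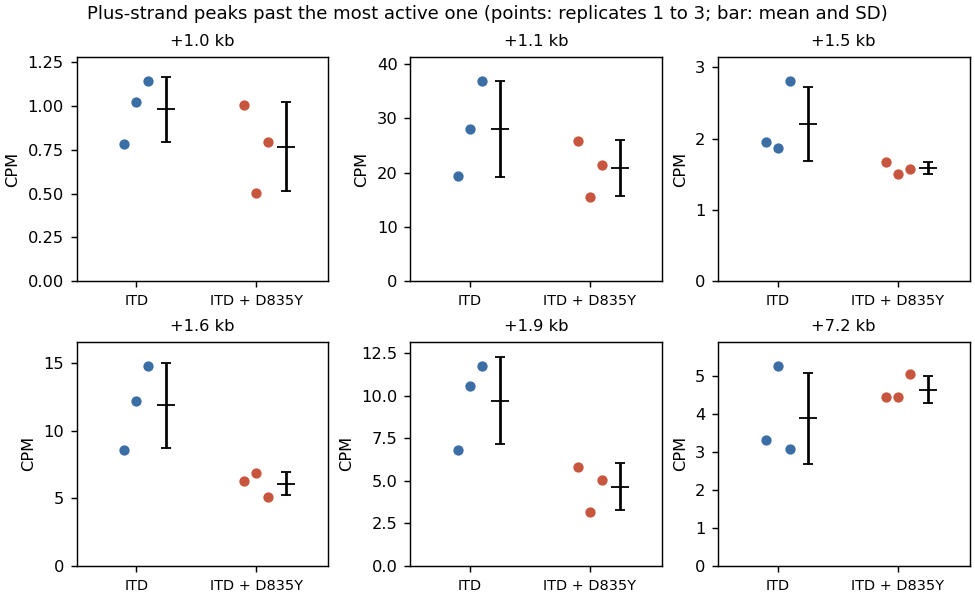
CPM of the 6 tested plus-strand peaks past the most active Gata2-strand peak, each panel headed by the distance in kb, with 1 point per library and the mean and SD of each group (n = 3). The groups are apart at +1.5, +1.6 and +1.9 kb and overlap at the others. Over all tested peaks they are apart at 41.8%.

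A fit over the whole table with limma, with Benjamini-Hochberg adjustment at 0.05, called 24.4% of the 19162 peaks, 10.4% lower and 14.1% higher in the double mutant. The excess of higher calls depended on the scaling: 2695 peaks were called higher and 1985 lower on CPM as deposited, 2451 and 2456 after TMM scaling, 2363 and 2346 with edgeR, and 1702 and 1836 with DESeq2. At the Gata2 locus limma called 3 of 12 peaks, all lower: the minus-strand peak and the plus-strand peaks at 88150281 and 88150573. The calls at the locus were the same under these 4 settings. All of them use the same libraries, on which the locus was selected, so this agreement is no separate support. At 4 of the 12 the groups were apart without overlap, all lower in the double mutant, against 41.8% of all tested peaks in either direction and 17.6% lower. Since the locus was chosen with this comparison known, nothing is read from these counts. The call for 88150573 was lost without FLT3-ITD replicate 2 and without FLT3-ITD replicate 3, while its difference stayed between -1.13 and -0.71 under the 12 alternatives to the fit. The upstream plus-strand peak at 88102369 was called higher without double-mutant replicate 2, with a log2 difference of 0.39 in place of 0.20. By the size of its log2 difference the minus-strand peak ranked 7 from the lowest in the whole table. Of 5122 peaks with a mean of at least 20 CPM in FLT3-ITD cells, 8 (0.156%) had a mean at least 10 times lower in the double mutant. The 1 of these on chromosome 6 was the minus-strand peak itself. These limits were set after the values were seen and ask for a high level in FLT3-ITD cells. The locus was selected on this same difference, so neither the rank nor the share is evidence that the peak is unusual.

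The surroundings of the locus were mostly lower in the double mutant, more evenly so at lower coordinates than at higher ones. In the 500 kb on either side of the locus 27 peaks were tested, 21 on the lower side and 6 on the higher side. Of these 25 had a difference below 0, 9 were called lower and 0 higher by limma, and the median difference was -0.43 on the log2(CPM + 1) scale. On the lower side all 21 were below 0 and 8 were called lower, with a median of -0.47. On the higher side 4 of 6 were below 0 and 1 was called lower, with a median of -0.18. Several peaks on the lower side lie close together, so they are not independent. Over all 19162 tested peaks 8566 had a difference below 0, 10.4% were called lower and 14.1% higher, and the median was 0.05. The 11 tested plus-strand peaks of the locus had a median of -0.17, and 7 were below 0. The nearest highly active flanking peak, chr6:88034495..88034521,+, is 114.2 kb before the most active Gata2-strand peak and had 382 ± 4.87 CPM with FLT3-ITD alone and 284 ± 25.7 CPM in the double mutant. On the other side, chr6:88396485..88396533,- had 44.0 ± 1.29 and 24.8 ± 2.10 CPM. In the flanks the lowest difference was -1.56, at chr6:87793620..87793686,-, which had 9.84 ± 2.71 and 2.72 ± 1.11 CPM. Whether the locus differs from its flanks was not tested.

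**Figure D5:**
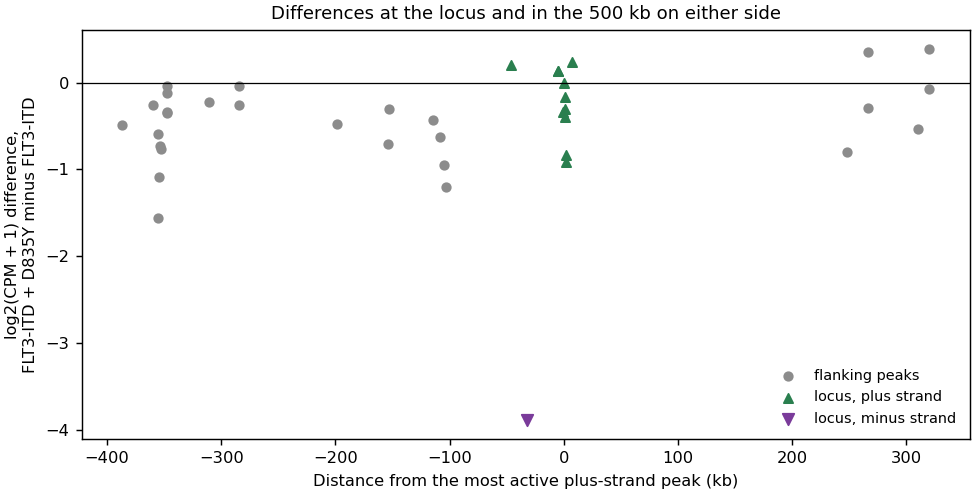
Difference between the groups (double mutant minus FLT3-ITD, log2(CPM + 1) scale) of the tested peaks of the Gata2 locus and of the 500 kb on either side, by distance from the most active Gata2-strand peak in kb. The flanking peaks lie between -1.56 and 0.39, the plus-strand peaks of the locus between -0.92 and 0.23, and the minus-strand peak at -3.89.

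Peaks elsewhere in the genome were ranked by how closely they followed each strand over the 6 libraries, by the root mean square difference between log2(CPM + 1) profiles centred on their own means. Of 10242 candidates with a mean of at least 5 CPM, the 5 closest to the minus-strand profile differed from it by 0.19 to 0.33, where a flat profile would differ by 1.97. The closest, chrX:54558014..54558065,-, had 42.0, 32.6 and 33.9 CPM with FLT3-ITD alone and 2.68, 0.715 and 1.78 CPM in the double mutant. The next was chr10:61533762..61533768,+, with 16.9, 17.8 and 12.9 CPM against 0.839, 0 and 0.0989 CPM. The third was chr7:50509109..50509143,+, with 15.2, 17.3 and 19.1 CPM against 1.01, 0.143 and 0.890 CPM. Each of these 3 was lowest in double-mutant replicate 2 and, like the peak of the Gata2 locus, above 12 CPM in every FLT3-ITD library. The 5 closest to the plus-strand sum differed from it by 0.02 to 0.04, where a flat profile would differ by 0.15. They followed the library differences within the double mutant, as the closest shows: chr14:56223010..56223067,+ had 5.46, 5.78 and 6.32 CPM against 4.70, 7.23 and 5.64 CPM. Peaks were ranked by these same profiles, so the patterns they share with each strand follow from the choice. The 6 points fall into 2 groups, so these ranks are a description.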

How the data were processed

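The members of the locus and all lists were chosen with earlier results of these data known. Total RNA was extracted with a column kit and libraries followed the nAnT-iCAGE protocol, which uses no amplification, per the labels' protocols. The unit of the deposited files is CPM: the authors scaled the tags of each library to 1000000 over the listed peaks. Per the submitters' processing notes, the tools were TopHat2 2.0.14 and edgeR 3.24.3, and 2 builds are named, hg19 and mm9; roles are not stated. The sources used here give neither the making of the peak list nor whether its starts count from 0 or 1.

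All CPM values above 0 were whole multiples of 1 step per library within 0.01 of a multiple (100%), which gave between 5884258 and 13977941 tags per library. One tag is worth 0.0715 to 0.170 CPM. Within groups libraries differed by 4.05 to 19.4 times the sampling variance, more than sampling the same library again would give. Whether they are separate preparations of the same RNA cannot be told from this.

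Levels were summed by strand. The whole table was fitted with limma 3.58.1 in R 4.3.3 on log2(CPM + 1), using a trended and robust prior and no term but the group. The count tests (edgeR 4.0.16 and DESeq2 1.42.0 on recovered tags, tested as alternatives) called 4709 and 3538 peaks. All differences are double mutant minus FLT3-ITD, and tests are two-sided. Peaks are given by position where their mean reached 1 CPM in a group, and similar peaks were the 5 with the smallest difference. Since the files pair no peak with a gene, the marker and Gata2 partner genes were not looked up. Promoter sequences are RefSeq's (GRCm38.p6) without the bases after the start.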

Additional observations from a re-analysis of the deposited data

How the results depend on the processing

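The minus-strand difference of -3.89 was -3.92 with TMM and -3.93 with RLE scaling, and it depended on the pseudocount, at -4.79 with 0.1 and -2.49 with 5. A larger pseudocount brings low values together by its construction. Leaving out single libraries gave -4.21 to -3.63. The plus-strand difference of -0.02 was -0.08 with either scaling and -0.16 to 0.10 with a library left out, so its sign was not settled, also at -0.02 with only the peaks that passed the filter. The ratio of the strands, at -4.94, ranged from -5.67 to -4.24 without single libraries. The flank median of -0.43 was -0.55 within 250 kb, -0.34 within 1000 kb and -0.34 with a minimum of 5 CPM, and -0.40 to -0.35 without single libraries. Over all peaks tested, limma called 4680; with a library left out the count lay between 3076, where FLT3-ITD replicate 2 was missing, and 5209, where replicate 2 of the double mutant was, and 5211 without the filter, where 54470 were tested. With the replicate number as a term (replicate block), 4109 peaks were called, the same 3 at the locus, and the 3 log2 differences of the locus are by construction those given above. Libraries that share a number were treated as unpaired. Their deviations from the group means had correlations of -0.01, 0.02 and 0.19. Libraries with different numbers had correlations of -0.18 to 0.15. With 3 libraries a group these values cannot exclude a pairing. The alternative without the upstream plus-strand peak was chosen after seeing the data. Depth limits the minus-strand values of the double mutant, where 6 to 26 tags were counted.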
